A study of Homo sapiens with 18 samples.

Results

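The genes described here encode the machinery that senses and mends DNA double-strand breaks. They are 37 genes taken by symbol from a table of 41120 symbols: 13 of homologous recombination, 8 of end joining, 7 of the Fanconi pathway and its helicases, and 9 that sense breaks, signal them or trim their ends. All 37 had counts, and all 37 were among the 12291 genes that passed the filter on low counts and were tested. They were measured in FaDu and SCC154, established head and neck squamous carcinoma cell lines that are negative (FaDu) and positive (SCC154) for human papillomavirus. Both carried a hypoxia-fate-mapping reporter (FADU-hfm and SCC154-hfm), with which cells that have met low oxygen turn lastingly from red (DsRed) to green (GFP) fluorescence. Spheroids of each line were taken apart with trypsin and sorted into green, post-hypoxic and red, non-hypoxic cells, and the sorted cells were then kept and passaged in culture. The 18 libraries were 4 post-hypoxic SCC154 (replicates 2 to 5), 5 non-hypoxic SCC154 (replicates 1 to 5), 5 post-hypoxic FaDu (replicates 1 to 5) and 4 non-hypoxic FaDu (replicates 1 to 4). Every library therefore came from cells with the reporter that had been through a spheroid, a sort and culture, and none from cells under low oxygen. Virus status and line cannot be told apart, since each stands for a single line.

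A double-strand break can be mended from an intact sister copy by homologous recombination or by direct joining of its ends. In recombination the ends are trimmed to single strands, on which BRCA2 loads the recombinase that searches for the matching sequence. In end joining the Ku proteins hold the ends while the ligase LIG4 and its partner XRCC4 seal them. The Fanconi proteins deal with crosslinked DNA and stalled replication forks, often by way of a break and recombination. In cell culture, low oxygen is known to lower the transcription of several recombination genes.

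Levels are given in CPM, a gene's counts per 1000000 counts in tested genes after scaling between libraries, and a fold change is post-hypoxic over non-hypoxic, or SCC154 over FaDu, on the log2 scale. A library held 1654719 to 2503573 counts, so that 1 CPM stood for 1.68 to 2.44 counts. The counts are of 3′ tags, so that a level says nothing of the rest of the transcript. A gene was called where its adjusted p was under 0.05 in the quasi-likelihood test of edgeR, adjusted by Benjamini and Hochberg's method over all 12291 genes. The 10 squamous epithelial markers were all tested and summed to 1840 to 2562 CPM, while the markers of fibroblasts, endothelium and immune cells summed to at most 5.80, 5.18 and 4.99 CPM in any library. Single squamous markers differed between the lines. KRT14 had group means of 3.28 and 5.23 CPM in SCC154 against 23.5 and 34.2 CPM in FaDu, and KRT5 23.4 and 28.1 against 196 and 238 CPM. KRT6A went the other way, with 427 and 431 CPM in SCC154 against 80.3 and 85.2 CPM in FaDu, and so did CDH1. CDKN2A, whose protein is used to mark papillomavirus-positive carcinoma, had 187 to 246 CPM in SCC154 libraries and 61.6 to 79.6 CPM in FaDu libraries.

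Promoters of the members were searched for motifs of the E2F factors, which time the genes of DNA replication, and of other cell cycle and hypoxia factors. The 5 with an E2F motif are shown because XRCC2 and FANCD2, the members of lowest p between SCC154 fractions, are among them. They were picked for display with their values known, so the values given for them are a description. RefSeq windows from 250 bases before to 50 after the start (GRCh38.p14) were at hand for 31 of the 37 members, and 12 of these had more than 1 window. The 4 E2F motifs searched on both strands were TTTCCCGC, TTTCGCGC, TTTGCCGC and TTTGGCGC. XRCC2 (chr7:152676092-152676391, minus strand), FANCD2 (chr3:10026187-10026486, plus strand), FANCA (chr16:89816598-89816897, minus strand), EXO1 (chr1:241847954-241848253, plus strand) and XRCC6 (chr22:41621045-41621344, plus strand) held 1 match each, shown in capitals. The sequences run 5′ to 3′ on the strand of the gene.
XRCC2: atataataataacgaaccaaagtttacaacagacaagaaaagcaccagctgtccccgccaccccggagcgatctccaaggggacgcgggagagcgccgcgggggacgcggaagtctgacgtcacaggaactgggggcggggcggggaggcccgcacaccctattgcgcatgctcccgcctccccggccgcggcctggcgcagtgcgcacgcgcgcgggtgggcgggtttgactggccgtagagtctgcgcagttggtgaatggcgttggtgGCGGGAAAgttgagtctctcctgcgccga
FANCD2: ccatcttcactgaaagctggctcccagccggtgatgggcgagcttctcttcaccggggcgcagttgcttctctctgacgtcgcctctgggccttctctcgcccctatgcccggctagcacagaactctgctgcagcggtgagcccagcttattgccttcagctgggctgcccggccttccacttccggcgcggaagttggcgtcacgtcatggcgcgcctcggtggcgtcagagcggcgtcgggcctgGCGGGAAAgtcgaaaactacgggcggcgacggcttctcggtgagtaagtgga
FANCA: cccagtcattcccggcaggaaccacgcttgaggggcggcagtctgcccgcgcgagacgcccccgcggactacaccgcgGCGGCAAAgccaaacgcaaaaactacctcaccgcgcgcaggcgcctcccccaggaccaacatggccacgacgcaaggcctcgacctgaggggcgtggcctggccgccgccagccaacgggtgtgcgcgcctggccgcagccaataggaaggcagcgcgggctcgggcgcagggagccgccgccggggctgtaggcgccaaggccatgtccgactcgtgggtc
EXO1: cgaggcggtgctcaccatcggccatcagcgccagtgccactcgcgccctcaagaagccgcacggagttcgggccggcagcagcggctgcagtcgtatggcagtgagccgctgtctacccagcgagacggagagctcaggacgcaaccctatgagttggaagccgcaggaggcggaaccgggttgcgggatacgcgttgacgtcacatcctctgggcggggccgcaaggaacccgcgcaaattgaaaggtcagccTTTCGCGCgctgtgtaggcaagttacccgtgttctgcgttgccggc
XRCC6: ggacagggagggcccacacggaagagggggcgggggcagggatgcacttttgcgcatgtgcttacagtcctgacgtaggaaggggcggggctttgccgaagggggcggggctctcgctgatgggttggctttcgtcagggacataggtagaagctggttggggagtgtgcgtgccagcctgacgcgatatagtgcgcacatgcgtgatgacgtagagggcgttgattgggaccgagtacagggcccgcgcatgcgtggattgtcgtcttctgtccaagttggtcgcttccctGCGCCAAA
The match began 22 bases after the start in XRCC2, at 2 bases before it in FANCD2 (position -2), at position -172 in FANCA, at 5 in EXO1 and at 43 in XRCC6. The share of members with a match was 16.1% (5 of 31), against 6.86% of 9694 tested genes with a window and 3.99% of 27305 genes in all. The letters TTTGAA, the cell cycle homology region of genes expressed late in the cycle, were in 12.9% of the members and 13.5% of the tested genes, and CCAAT in 54.8% and 43.8%. The core of the hypoxia response element, ACGTG or GCGTG, was in 87.1% of the members and 70.5% of the tested genes. A match is a description of letters in a window and not a bound site.

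In post-hypoxic SCC154 cells most repair genes lay below their level in non-hypoxic SCC154 cells, by small amounts. By sign, 26 of the 37 were lower (70.3%, against 49.4% of all tested genes), and the median log2 fold change was -0.18, against 0 over all genes. No member was called: 0 were higher and 0 lower by edgeR, where 0.334% of all genes were called higher and 0.423% lower (0.757% in either direction). At an unadjusted p under 0.05, 11 of the 37 were lower (29.7%, against 8.62% of all genes) and 0 higher (7.08% of all genes). DESeq2 called 3 members lower (XRCC2, FANCD2 and PRKDC) and limma voom 2 (XRCC2 and PRKDC). The shares of all genes called by these fits are not given here, so the counts cannot be set against genes at large. For PRKDC, SCC154 non-hypoxic replicate 1 was the highest of its group and post-hypoxic replicate 4 the lowest of its own. Without these libraries 25 of 37 members were lower by sign, the median was -0.13, and 8 had an unadjusted p under 0.05. In 7 members (18.9%) every post-hypoxic library lay below every non-hypoxic one, as 2.99% of all genes did. In 0 members did they all lie above, against 2.56% of all genes. In sorted cells measured in bulk, fewer cells of a type and less RNA per cell cannot be told apart.

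**Figure D1:**
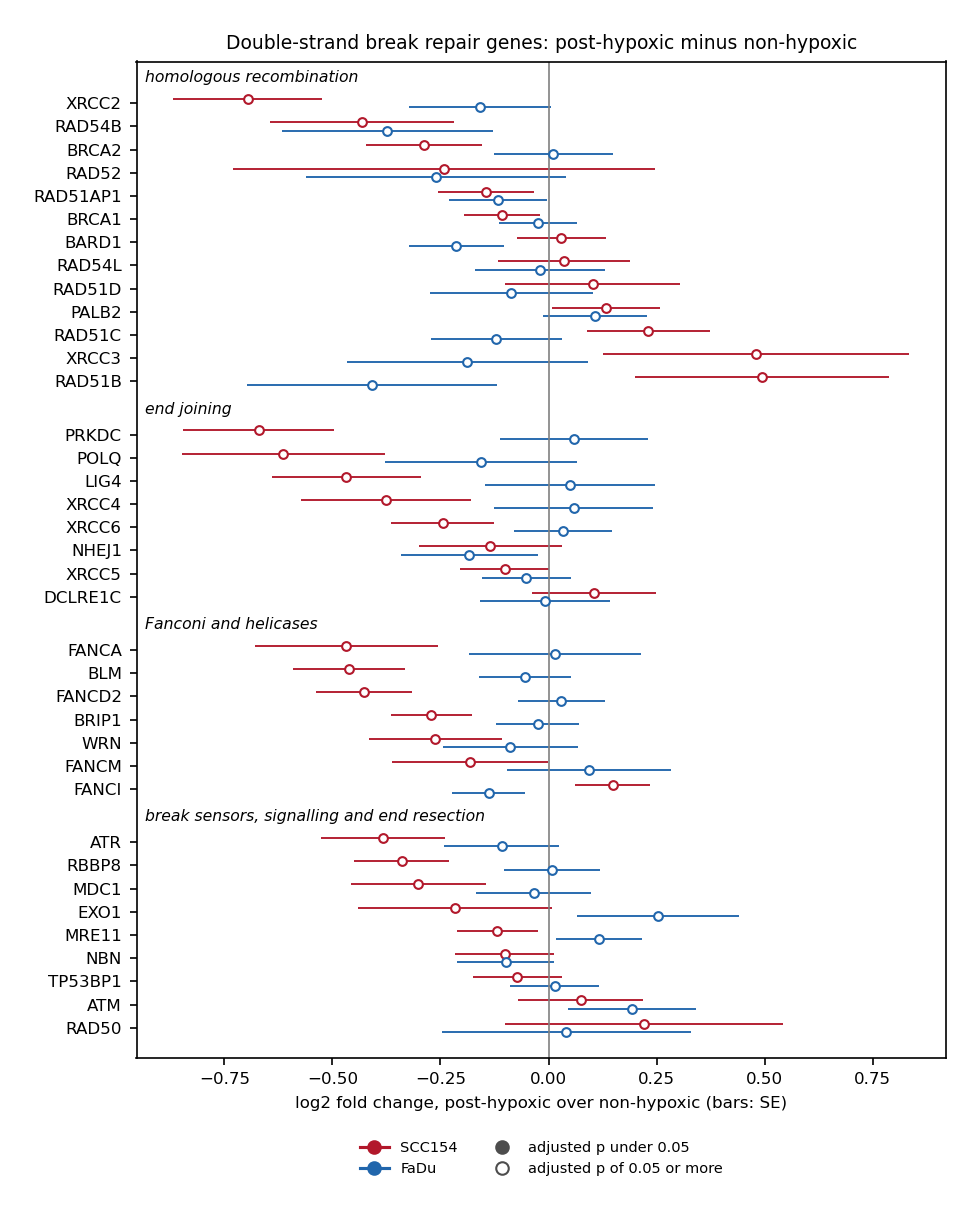
Log2 fold changes, post-hypoxic over non-hypoxic, of the 37 repair genes in SCC154 (red) and FaDu (blue), with the SE as bars, grouped by role and sorted by the SCC154 value. All points are open, as none had an adjusted p under 0.05 in either line, and 26 of the 37 red points lie left of 0.

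Homologous recombination held the member of lowest p, XRCC2, a paralogue of the recombinase that helps it assemble on DNA (chromosome 7, 152644779 to 152676165, minus strand, in GENCODE on GRCh38). XRCC2 had 37.3, 46.5, 43.9 and 62.2 CPM in the post-hypoxic SCC154 libraries, against 72.6, 72.5, 81.1, 68.1 and 89.6 CPM in the non-hypoxic ones. The groups did not overlap, and post-hypoxic replicate 5 stood highest of the 4. The means were 47.5 ± 10.5 CPM (SD, n = 4) and 76.8 ± 8.57 CPM (SD, n = 5), and the log2 fold change was -0.70 (SE 0.17, edgeR adjusted p = 0.0557). The rest of the recombination genes did not share this: 6 of the 13 were lower and 7 higher by sign, with a median of 0.03. BRCA2, the loader of the recombinase, had a log2 fold change of -0.29 and BRCA1 of -0.11. The paralogues of the recombinase other than XRCC2 were higher by sign in SCC154, with 0.49 for RAD51B, 0.48 for XRCC3, 0.23 for RAD51C and 0.10 for RAD51D, and none of these was called (lowest edgeR adjusted p = 0.433).

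End joining was lower by sign in 7 of 8 members, with a median of -0.31. PRKDC encodes the catalytic subunit of the DNA-dependent protein kinase, which is recruited by Ku to broken ends (chromosome 8, 47773108 to 47960183, minus strand). Its levels were 147, 185, 85.7 and 217 CPM in post-hypoxic SCC154 libraries, against 315, 230, 243, 226 and 245 CPM in non-hypoxic ones. The groups did not overlap. Post-hypoxic replicate 4 was the lowest of its group and non-hypoxic replicate 1 the highest of its own, and only the latter was flagged as far from its group (below). The log2 fold change was -0.67 (SE 0.18, edgeR adjusted p = 0.0689), and it was -0.36 (adjusted p = 0.319) without these 2 libraries. They were chosen after the values were seen, as the extremes in the direction of the difference. Leaving them out had to shrink the difference, so the smaller value does not measure how firm it is. PRKDC starts 2 bases from MCM4, a subunit of the replicative helicase read in the other direction, and MCM4 had a log2 fold change of -0.10 (edgeR adjusted p = 0.593). POLQ, the polymerase that joins ends at short matching stretches, had 47.1, 72.8, 31.2 and 64.4 CPM in post-hypoxic libraries, against 112, 74.9, 92.6, 59.0 and 70.5 CPM in non-hypoxic ones. These groups overlapped (log2 fold change -0.61, SE 0.23, edgeR adjusted p = 0.201). LIG4 had -0.47 (adjusted p = 0.183 by edgeR), its partner XRCC4 -0.38, and the Ku genes XRCC6 and XRCC5 -0.25 and -0.10. Only the nuclease gene DCLRE1C was higher by sign among the 8, with 0.11.

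Among the Fanconi genes and helicases, 6 of 7 were lower by sign, with a median of -0.27. FANCD2, which is ubiquitinated at damaged forks together with FANCI, had 44.6, 49.5, 45.1 and 39.5 CPM in post-hypoxic SCC154 libraries, against 55.3, 64.3, 67.3, 55.5 and 58.0 CPM in non-hypoxic ones. All 4 post-hypoxic libraries lay below the lowest non-hypoxic one (log2 fold change -0.43, SE 0.11, edgeR adjusted p = 0.0658). Its partner FANCI went the other way by sign, with 344, 338, 398 and 381 CPM in post-hypoxic libraries, against 311, 344, 358, 310 and 325 CPM in non-hypoxic ones, and the groups overlapped (0.15, edgeR adjusted p = 0.419).

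BLM, the helicase that dissolves joined recombination intermediates, had 32.4, 32.2, 27.1 and 39.9 CPM in post-hypoxic SCC154 libraries, against 44.4, 40.6, 41.4, 51.2 and 48.1 CPM in non-hypoxic ones (log2 fold change -0.46, SE 0.13, edgeR adjusted p = 0.0931). BRIP1, the helicase that partners BRCA1, had 95.8, 100.2, 102 and 110.3 CPM in post-hypoxic libraries, against 129, 125, 124, 112 and 126 CPM in non-hypoxic ones (-0.27, SE 0.09, edgeR adjusted p = 0.159). Neither gene's groups overlapped, though the gap was narrow in both. FANCA, of the core complex that ubiquitinates FANCD2, had -0.47 (edgeR adjusted p = 0.284), with 35.6 CPM in the highest post-hypoxic and 36.1 CPM in the lowest non-hypoxic library.

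Of the 9 genes that sense, signal or trim breaks, 7 were lower by sign, with a median of -0.12. RBBP8 encodes the factor that starts the trimming of ends together with MRE11. It had 236, 217, 262 and 287 CPM in post-hypoxic SCC154 libraries, against 294, 335, 339, 308 and 311 CPM in non-hypoxic ones, with no overlap (log2 fold change -0.34, SE 0.11, edgeR adjusted p = 0.1399). The kinase ATR, which answers to single-stranded DNA, had -0.38 (edgeR adjusted p = 0.192), and ATM, the kinase that answers to breaks, 0.07. The members not given above by value lay between -0.43 (RAD54B) and 0.22 (RAD50), among them NHEJ1, RAD51AP1, PALB2, RAD54L, FANCM, WRN, NBN, TP53BP1, MRE11, MDC1, RAD52 and BARD1. RAD50, the third subunit of the MRE11 complex, was at 2.49 to 8.25 CPM over all 18 libraries, so that small differences in it were not detectable at this depth.

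**Figure D2:**
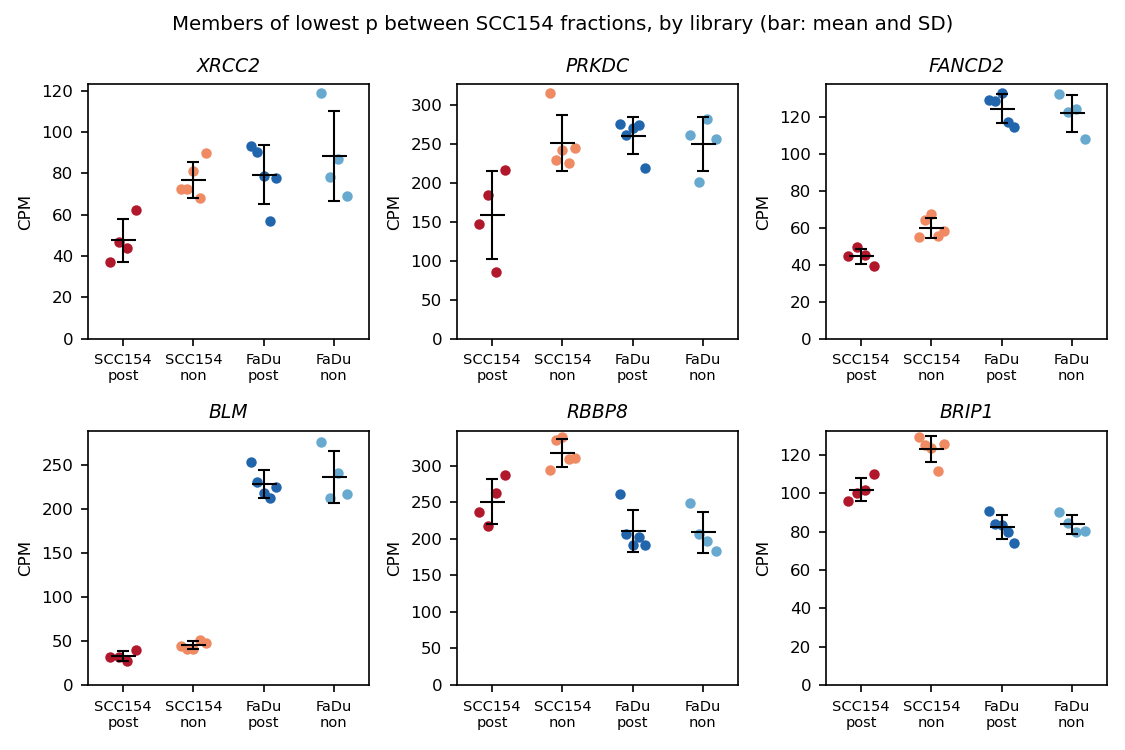
CPM by library of the 6 members of lowest p between SCC154 fractions, with mean and SD, in SCC154 and FaDu libraries with post-hypoxic left of non-hypoxic. In each panel the 4 post-hypoxic SCC154 points lie below the 5 non-hypoxic ones, and the FaDu groups overlap.

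Genes of DNA replication and division were also lower by sign between the SCC154 fractions. By sign 29 of 40 G1/S genes were lower (median -0.11), and 25 of 35 tested G2/M genes (median -0.09), with 0 called in either list. The summed level of the 37 repair genes was 3625 to 4170 CPM in post-hypoxic SCC154 libraries, against 4161 to 4341 CPM in non-hypoxic ones, that of the G1/S genes 4060 to 4570 against 4338 to 5015 CPM, and that of the G2/M genes 10684 to 11689 against 10565 to 13353 CPM. The part of these genes in the repair result was not tested. Among 83 tested genes of the same pathways that are not members, 49 were lower by sign (median -0.04) and 0 were called.

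The 5 members with an E2F motif were all lower by sign in post-hypoxic SCC154 cells (median -0.43), against 16 of the 26 without it (median -0.13). Between FaDu fractions 1 of the same 5 was lower (median 0.03), against 16 of the 26 without it (median -0.02). Over all 665 tested genes with such letters the SCC154 median was -0.03, and over the 9029 without them 0.00. XRCC2, FANCD2 and FANCA are among the 7 members without overlap, EXO1 (-0.22) and XRCC6 (-0.25) are not. This set was shown because it holds XRCC2 and FANCD2, the members of lowest p between SCC154 fractions, so the contrast is a description. Members were not split by the other motifs.

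In FaDu the repair genes differed little between the sorted fractions. The median log2 fold change was -0.02, 22 of 37 members were lower by sign (59.5%, against 50.8% of all genes), and no member had an unadjusted p under 0.05, where 1.28% of all genes were higher and 1.15% lower at that level. By edgeR 0 members and 0 of the 12291 genes were called (0%), and DESeq2 and limma voom called 0 members. In 0 members did the libraries of the fractions not overlap, against 0.561% of all genes higher and 0.504% lower. The count by sign ran from 15 to 27 as single libraries were left out, and was 15 (median 0.02) without non-hypoxic replicate 1, which was the highest of its group in 23 of the 37 members. Post-hypoxic replicate 1 was likewise the highest in 17 of 37.

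The FaDu members of lowest p were BARD1, the obligate partner of BRCA1, FANCI, RAD54B, RAD51B, EXO1 and ATM, each with an edgeR adjusted p of 1. BARD1 had 57.2, 49.2, 64.5, 56.5 and 54.6 CPM in post-hypoxic FaDu libraries, against 67.03, 70.6, 64.9 and 58.8 CPM in non-hypoxic ones, and the groups overlapped (log2 fold change -0.21, SE 0.11). FANCI had -0.14, RAD54B, a motor protein of recombination, -0.37, RAD51B -0.41, the exonuclease EXO1 0.25 and ATM 0.19. Of the 13 recombination genes 11 were lower by sign in FaDu (median -0.12). The 6 genes that led in SCC154 had FaDu log2 fold changes of -0.16 (XRCC2), 0.06 (PRKDC), 0.03 (FANCD2), -0.05 (BLM), 0.01 (RBBP8) and -0.02 (BRIP1).

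The difference between the lines was tested as the SCC154 fold change minus the FaDu one. No member passed (0 higher, where 0% of all genes did, and 0 lower, where 0.0163% did). The lowest p were those of FANCD2, with -0.46 (SE 0.15, edgeR adjusted p = 0.329), PRKDC, with -0.73 (SE 0.24, adjusted p = 0.333), and BLM, with -0.41 (SE 0.17, adjusted p = 0.438). At an unadjusted p under 0.05, 5 members were lower in this test (13.5%, against 5.15% of all genes): XRCC2, FANCD2, PRKDC, BLM and RBBP8. Another 2, FANCI and RAD51B, were higher (5.41%, against 4.63%). Other fits called up to 2 members lower, and the shares of all genes called by them are not given here. With a replicate block within each line these were PRKDC (-0.75, edgeR adjusted p = 0.0272) and FANCD2 (-0.52, adjusted p = 0.0487). That block takes same-numbered libraries as pairs, which the titles do not state. With no filter on low counts it was PRKDC (-0.72, edgeR adjusted p = 0.0462). Whether the fold changes of the lines differ for these genes thus depended on the fit.

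The position of FANCD2 was looked at more closely after its values and those of its neighbours had been seen. FANCD2 lies at 10026414 to 10101930 on chromosome 3, plus strand. Of 26 other tested genes within 2 Mb, 24 were lower by sign in post-hypoxic SCC154 cells, and their median of -0.52 compares with -0.43 for FANCD2 itself. In FaDu 14 of the 26 were lower, with a median of -0.03. Within 1 Mb all 20 were lower in SCC154 (median -0.51), within 5 Mb 38 of 51 (median -0.22). The median difference of the 26 from the mean of the non-hypoxic SCC154 libraries was -0.58, -0.46, -0.51 and -0.40 in the 4 post-hypoxic libraries, and between -0.13 and 0.06 in the 5 non-hypoxic ones.

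By edgeR 3 of the 26 were called lower: VHL, which targets the hypoxia-inducible factors for breakdown (log2 fold change -0.52, SE 0.12, adjusted p = 0.0416), SETD5 (-0.42, adjusted p = 0.0322) and SRGAP3 (-1.16, adjusted p = 0.0368), where 0.423% of all genes were. Over 28 other settings and left-out libraries the count of called genes ran from 0 to 14, and the median from -0.58 to -0.45. The shares of all genes called in these settings are not given here. RAD18, a ubiquitin ligase of damaged replication forks from the same pathways, lies in this stretch at 8775402 to 8963773 and had -0.70 (SE 0.17, edgeR adjusted p = 0.0557). Of 293 stretches of 5 Mb with at least 15 tested genes, the one from 5 to 10 Mb of chromosome 3 had the lowest median between the SCC154 fractions, -0.50 over 18 genes, and the next lowest had -0.26. Around the other 36 members the 2 Mb medians ran from -0.20 to 0.18. DNA copy number was not analysed here, and its part in these values was not tested.

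**Figure D3:**
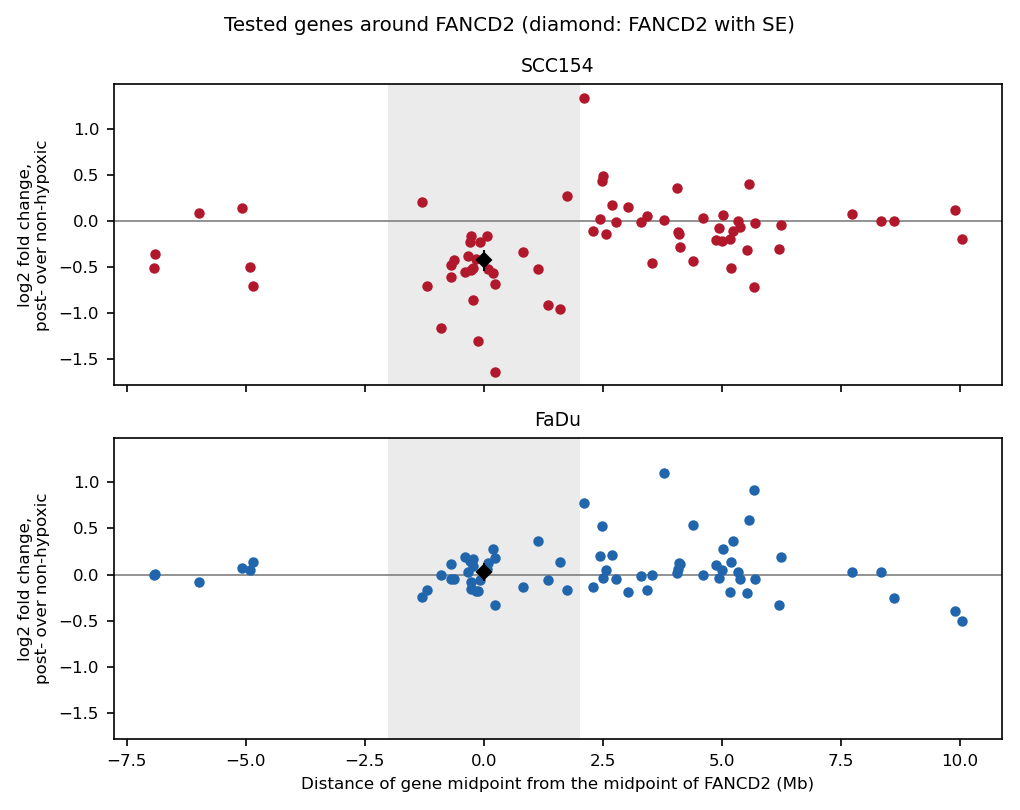
Log2 fold changes, post-hypoxic over non-hypoxic, of tested genes by distance from FANCD2 in Mb, in SCC154 (upper) and FaDu (lower), with FANCD2 as a diamond with its SE and the stretch of 2 Mb on either side shaded. In SCC154 24 of 26 neighbours in the shaded stretch lie below 0, in FaDu 14 of 26.

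Between the lines the repair genes differed far more than between sorted fractions, in both directions and, in most counts, about as often as genes did at large. In non-hypoxic cells 13 members were higher in SCC154 and 13 lower (35.1% each), where 34.5% of all genes were higher and 34.5% lower by edgeR. In post-hypoxic cells 12 were higher (32.4%) and 17 lower (45.9%), where 34.8% and 34.9% of all genes were. In either direction that is 70.3% of the members in non-hypoxic cells, against 68.9% of all genes, and 78.4% in post-hypoxic cells, against 69.7%. By sign, 15 members were higher (40.5%) and 22 lower (59.5%) in post-hypoxic cells, where 50.3% of all genes were higher and 49.7% lower. These comparisons share no library. The 5 members with an E2F motif were lower by sign in both, with medians of -1.38 in post-hypoxic and -0.91 in non-hypoxic cells, against 0.07 and -0.16 for the 26 without it. All 665 tested genes with such letters had medians of -0.001 and -0.01, with 334 and 336 of them lower by sign. In both, 12 members were called higher (32.4%, against 30.1% of all genes) and 13 lower (35.1%, against 30.1%). XRCC2 (-0.74), PRKDC (-0.72), POLQ (-0.81) and FANCA (-0.72) were called lower in post-hypoxic cells alone, and FANCM was called higher in non-hypoxic cells alone (0.66). TP53BP1, XRCC5, WRN, RAD54L, RAD50, NHEJ1 and RAD51B were called in neither. With a difference of over 2-fold in both, MRE11 alone was higher (2.70%, against 18.3% of all genes) and 5 were lower (13.5%, against 14.2%): XRCC6, FANCD2, BLM, RAD52 and MDC1. Most of these shares are near those of all genes. Those farther from them are the lower calls in post-hypoxic cells, which were more frequent, and the rises of over 2-fold, which were rarer.

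**Figure D4:**
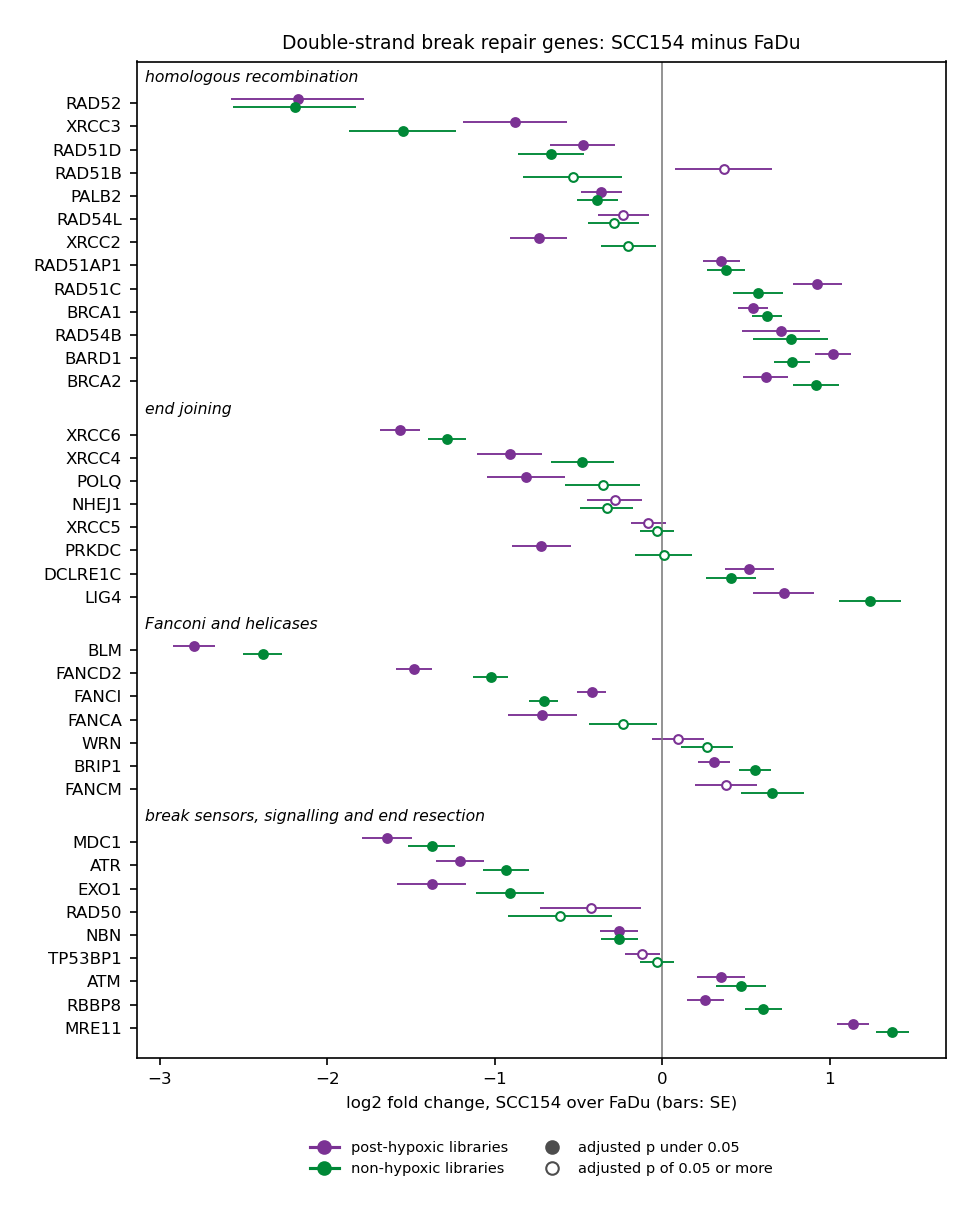
Log2 fold changes, SCC154 over FaDu, of the 37 repair genes in post-hypoxic (purple) and non-hypoxic (green) libraries, with the SE as bars and filled points for an adjusted p under 0.05. BLM and RAD52 lie farthest to the left and MRE11 farthest to the right in non-hypoxic libraries.

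The higher members included the nuclease MRE11, which opens the trimming of ends. It had 303, 349, 269 and 342 CPM in post-hypoxic SCC154 libraries against 162, 135, 134, 136 and 150 CPM in post-hypoxic FaDu ones. In non-hypoxic cells it had 321, 368, 329, 342 and 352 CPM in SCC154 against 148, 131, 129 and 120 CPM in FaDu, and every SCC154 library was above every FaDu library. The log2 fold change was 1.14 (SE 0.10) in post-hypoxic and 1.37 (SE 0.10) in non-hypoxic cells, with edgeR adjusted p of 3.47e-10 and 2.68e-11. LIG4 had 0.72 and 1.24, BARD1 1.02 and 0.78, BRCA2 0.62 and 0.92, RAD51C 0.92 and 0.57, and RAD54B 0.71 and 0.77, in post-hypoxic and non-hypoxic cells in this order. BRCA1 (0.54 and 0.62) was higher as well, so that BRCA1, BARD1 and BRCA2 all were. PALB2 of the same pathway went the other way, with -0.36 and -0.39 (edgeR adjusted p = 0.0112 and 0.00776). So did RAD51D (-0.48 and -0.67), and XRCC3 and RAD52, which are given below. Among the 13 recombination genes, edgeR found 6 raised in each comparison. It found 5 reduced in post-hypoxic cells and 4 in non-hypoxic cells.

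BLM was the lowest member in SCC154 relative to FaDu. It had 27.1 to 39.9 CPM in post-hypoxic SCC154 libraries against 213 to 254 CPM in post-hypoxic FaDu ones, and 40.6 to 51.2 CPM in non-hypoxic SCC154 libraries against 213 to 277 CPM in non-hypoxic FaDu ones. The log2 fold changes were -2.80 (SE 0.13, edgeR adjusted p = 5.19e-15) and -2.39 (SE 0.12, adjusted p = 2.18e-14). RAD52, which anneals single strands, had 1.23, 6.56, 2.05 and 3.63 CPM in post-hypoxic SCC154 libraries against 14.2, 17.9, 7.72, 17.7 and 14.1 CPM in post-hypoxic FaDu ones, with no overlap (-2.18, SE 0.40, edgeR adjusted p = 3.82e-05). At these levels a SCC154 library held few RAD52 tags. MDC1, the scaffold that spreads the break signal along chromatin, had -1.65 and -1.38, and XRCC3 -0.88 and -1.55, in post-hypoxic and non-hypoxic cells.

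The Ku genes went apart. XRCC6 had 109, 125, 122 and 123 CPM in post-hypoxic SCC154 libraries against 346, 348, 397, 363 and 317 CPM in post-hypoxic FaDu ones, a log2 fold change of -1.57 (SE 0.12, edgeR adjusted p = 6.50e-11), and -1.29 (SE 0.12) in non-hypoxic cells. XRCC5, whose protein pairs with that of XRCC6, had 360 ± 39.3 CPM (SD, n = 4) in post-hypoxic SCC154 cells and 382 ± 46.1 CPM (SD, n = 5) in post-hypoxic FaDu cells, and its groups overlapped (-0.08, edgeR adjusted p = 0.479). XRCC6 starts 23 bases from DESI1, read in the other direction, and DESI1 had -3.48 and -3.70 in post-hypoxic and non-hypoxic cells. The Fanconi partners were both lower, FANCD2 with -1.48 and -1.02 and FANCI with -0.42 and -0.71. FANCD2 had 39.5 to 49.5 CPM in post-hypoxic SCC154 libraries against 115 to 133 CPM in post-hypoxic FaDu ones.

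Across the 37 members, the fold change between the lines went with that of the surrounding genes. In non-hypoxic cells 28 of the 37 had the sign of the median of their neighbours within 2 Mb (75.7%, against 62.7% of 11256 tested genes with at least 5 neighbours). The Spearman correlation over the 37 was 0.72. In post-hypoxic cells 28 of the 37 did (75.7%, against 62.9%), with a Spearman correlation of 0.62. Between SCC154 fractions 18 of the 37 did (48.6%, against 56.9%), with a Spearman correlation of 0.24. BLM and FANCI share a stretch of chromosome 15, whose neighbours had medians of -1.27 and -1.87 in post-hypoxic cells and -1.48 and -1.88 in non-hypoxic ones. Around MRE11 the medians were 0.92 and 1.14, around XRCC6 -0.93 and -0.85, and around LIG4 1.96 and 1.55 (7 genes). ATM went against its neighbours, with 0.35 and 0.47 against medians of -1.004 and -0.69. Members that lie close together share neighbours, so the 37 points are not independent. The correlations were not computed over all tested genes, so they cannot be read as particular to the members. Their neighbours include other members, which the medians given for single members leave out.

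Of the 83 tested genes of these pathways outside the 37, 21 were higher (25.3%) and 19 lower (22.9%) in SCC154 in both line comparisons, where 30.1% of all genes were higher and 30.1% lower. FANCF, an adaptor of the Fanconi core complex (chromosome 11, 22622890 to 22625841, minus strand), had 0 counts in all 9 SCC154 libraries. It had 20.2, 19.8, 25.4, 19.4 and 17.6 CPM in post-hypoxic FaDu libraries and 19.0, 25.7, 23.5 and 21.6 CPM in non-hypoxic ones. Against a floor of 3 counts over each SCC154 group, FANCF was at least 59.7-fold lower in post-hypoxic and at least 79.2-fold lower in non-hypoxic SCC154 cells than in FaDu cells (edgeR adjusted p = 1.97e-10 and 6.84e-11).

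PAXX, an accessory factor of Ku, had 7.78, 1.79, 6.56 and 4.08 CPM in post-hypoxic SCC154 libraries against 31.1, 32.7, 34.1, 30.5 and 33.4 CPM in post-hypoxic FaDu ones (log2 fold change -2.60, edgeR adjusted p = 8.12e-10). SHLD2, a subunit of shieldin, which protects ends from trimming, had -1.69, the acetyltransferase KAT5 -1.33 and the checkpoint clamp subunit HUS1 -0.96 in the same comparison. ZSWIM7, a partner of the recombinase paralogues, had 47.5, 38.8, 53.7 and 47.2 CPM in post-hypoxic SCC154 libraries against 4.36, 6.90, 11.4, 13.2 and 13.2 CPM in post-hypoxic FaDu ones (2.23, edgeR adjusted p = 1.50e-09). XRCC1, a scaffold of single-strand break repair, had 2.56, ABRAXAS1, of a BRCA1 complex, 1.89, the helicase RECQL4 1.67 and the histone H2AX 1.07. None of these was called between sorted fractions of either line.

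**Figure D5:**
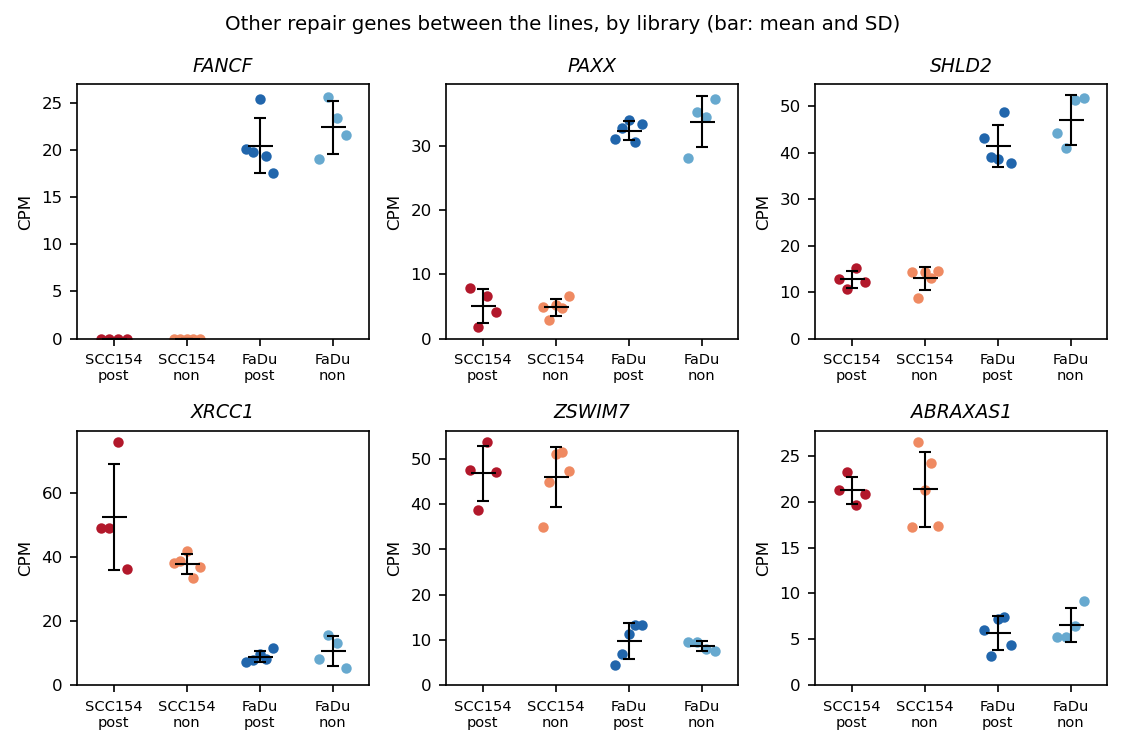
CPM by library, with mean and SD, of 6 repair genes outside the 37 in SCC154 and FaDu libraries, with post-hypoxic left of non-hypoxic. FANCF is at 0 in all 9 SCC154 libraries, and in every panel the SCC154 and FaDu points do not overlap.

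The levels of some members are uncertain, because their 3′ ends meet another gene and the strand setting of the counting is not given in the sources used here. RAD54B shares its 3′ end with FSBP on the same strand (28.0 CPM on average). BRCA2 runs into N4BP2L1 (6.39 CPM), and exons of a neighbour on the other strand overlap the 3′ ends of FANCA, FANCI, RAD54L, DCLRE1C and TP53BP1. Of the pseudogene copies in the table, those of XRCC6 had the most counts, with 93 for XRCC6P4 and 91 for XRCC6P2 over all 18 libraries.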

How the data were processed

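The deposited values are read counts, whole numbers per gene symbol, in 1 table of 18 libraries of 3′ mRNA tags. Per the submitters' processing notes, the authors used the hg38 build, HISAT2 2.2.1, featureCounts 1.5.1, Trimmomatic 0.39, FastQC 0.11.9, UMI-tools 1.1.5 and DESeq2. Not given in the sources used here are the annotation, the strand setting and what UMI-tools did, so floors cover counting error only.

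From these counts, genes were filtered with edgeR's filterByExpr (minimum count 10, 12291 of 41120 symbols), scaled by TMM and fitted with edgeR 4.0.16 (R 4.3.3) as 4 group means over 18 libraries (quasi-likelihood, Benjamini-Hochberg). The common biological coefficient of variation was 0.148. Steps were tested on simulated data. Groups and replicate numbers came from titles. Nothing says that replicates were separate cultures or sorts, so p-values measure only how far these samples spread, and that spread may be technical. No pair of replicates matched within sampling noise (chi-square per degree of freedom 1.84 to 11.7 over 32 pairs). Deviations of same-numbered libraries had correlations of 0.18 to 0.45 over 4 pairs in FaDu and of 0.03 to 0.40 over 4 pairs in SCC154. Some libraries of unlike number deviated together more than those of like number. FaDu post-hypoxic replicate 3 had 0.24 with non-hypoxic replicate 4, against 0.21 with non-hypoxic replicate 3. SCC154 post-hypoxic replicate 2 had 0.20 with non-hypoxic replicate 4, against 0.03 with non-hypoxic replicate 2. The main fit took no libraries as paired in either line, so its p-values leave out any pairing.

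The members, lists and settings were chosen with earlier results of these data known. Named were the 6 members of lowest p in each line, 3 in the interaction, up to 6 per direction called in both line comparisons by mean fold change, and up to 5 per direction of the other repair genes; any further gene was chosen after its values were seen. Alternatives were other scalings, DESeq2 1.42.0, limma 3.58.1 voom, other filters, blocks and left-out libraries. Positions are those of GENCODE release 29.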

Additional observations from a re-analysis of the deposited data

Results flagged for a closer look

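Among 80 groups of libraries (20 named members in 4 groups each), 6 held a library far from the others of its group, where chance alone flags about 1 in 20. FANCI had 554 CPM in post-hypoxic FaDu replicate 1 (the others had 467 to 482 CPM) and 601 CPM in non-hypoxic FaDu replicate 1 (the others 516 to 520 CPM). PRKDC had 220 CPM in post-hypoxic FaDu replicate 5 (262 to 276 CPM in the others) and 315 CPM in non-hypoxic SCC154 replicate 1 (226 to 245 CPM). RBBP8 had 261 CPM in post-hypoxic FaDu replicate 1 (191 to 207 CPM). MDC1 had 92.4 CPM in post-hypoxic FaDu replicate 4 (70.4 to 74.7 CPM). Of the 6, 3 were in replicate 1 of FaDu.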

How the results depend on the processing

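The count of members called lower between SCC154 fractions, 0 by edgeR, was 3 with DESeq2, 2 with limma voom and 3 with no filter on low counts. It ran from 0 to 3 over the fits that left out 1 library each: 1 without FaDu post-hypoxic replicate 4 or FaDu non-hypoxic replicate 1 (XRCC2), 2 without SCC154 post-hypoxic replicate 3 and 3 without SCC154 post-hypoxic replicate 5. A replicate block within each line gave 8 and a replicate block shared across lines gave 3, although the titles do not state that same-numbered libraries are pairs. In the interaction, 1 member was called lower with no filter and 2 with the replicate block within each line. The cause of these differences between fits was not tested. For the other fits the shares of all genes called are not given here, so the counts cannot be set against genes at large. The FaDu count stayed at 0 in every setting run, the block included, and the counts between the lines stayed within 10 to 13 higher and 12 to 17 lower. Some single calls between the lines were less firm than these counts. NBN lost its call in 16 of 27 settings in non-hypoxic cells and in 23 of 27 in post-hypoxic ones. In post-hypoxic cells RBBP8 lost its call in 9 of 27 settings and ATM in 6 of 27. No direction reversed for a named member. An added setting, chosen after seeing the data, left out SCC154 non-hypoxic replicate 1 and post-hypoxic replicate 4 and called 0 members. At 1.68 to 2.44 counts per CPM, the precision is lowest for members of few tags, such as RAD50, RAD52, RAD51B and XRCC3.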

Other observations

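SVIP, which encodes an inhibitor of protein degradation at the endoplasmic reticulum, is the only other tested gene within 1 Mb of FANCF (chromosome 11, 22813799 to 22830299). It had 1 count in post-hypoxic SCC154 replicate 2 and 0 in the other 8 SCC154 libraries, against 73.6 to 101 CPM in post-hypoxic FaDu libraries and 70.9 to 109.8 CPM in non-hypoxic ones. FANCF had 0 counts in the same 9 SCC154 libraries. Neither gene was called between the sorted fractions of FaDu. The gene was looked up after the values of FANCF were seen, and DNA copy number and methylation were not analysed here.

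The neighbours of ATM and ATM itself went opposite ways between the lines, as given above, and NPAT, which starts 158 bases from ATM in the other direction, had log2 fold changes of 0.37 in post-hypoxic and 0.55 in non-hypoxic cells, as ATM had 0.35 and 0.47. RAD52 and ERC1, whose starts lie 456 bases apart, were both lower in SCC154, ERC1 with -1.96 and -1.68.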
